A study of Mus musculus with 12 samples.

Results

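The genes described here are 40 mouse genes of protein folding, disulfide bonding, quality control and degradation in the endoplasmic reticulum (ER), with the sensors and transcription factors that regulate them. They were taken by symbol from a deposited table of 17922 genes, and all 40 were found. The list was chosen with earlier results of these data known, so counts of its members describe them and are no independent test. The 40 genes comprise 14 folding chaperones and their cofactors, 10 disulfide isomerases and oxidases, 10 degradation genes, 5 sensors and transcription factors, and Hid1, a gene of secretory granule formation. RNA was sequenced from cartilage cells (chondrocytes) of the rib cage after collagenase digestion and a night in culture. There were 4 groups of 3 samples, all from mice of mixed strain with C57BL/6 dominant, and each knockout had littermate controls. Mice of the LDH knockout carried Ldha(fl/fl) and Ldhb+/- together with Col2-Cre, in which a collagen II promoter drives the recombinase in cartilage, and were taken with their controls at postnatal day 5 (P5). Those of the Acly knockout carried Acly(fl/fl) with the same Cre and were taken with their controls before birth, at E18.5. Neither the Cre status nor the alleles of either control group are given in the sources used here. Ldha and Ldhb encode subunits of lactate dehydrogenase, which turns pyruvate into lactate at the end of glycolysis, and Acly encodes ATP citrate lyase, which makes acetyl-CoA in the cytoplasm. The study asked what follows from less glycolysis and from less cytoplasmic acetyl-CoA in the developing skeleton.

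Chondrocytes secrete large amounts of collagen and proteoglycan, and these proteins fold in the ER before export. Chaperones such as BiP (Hspa5) and GRP94 (Hsp90b1) hold unfolded chains, protein disulfide isomerases form and reshuffle disulfide bonds, and chains that fail to fold are drawn back into the cytoplasm and broken down, a route called ER-associated degradation. When unfolded proteins build up, the sensors IRE1 (Ern1), ATF6 and PERK (Eif2ak3) start the unfolded protein response: IRE1 splices Xbp1 RNA, ATF6 is cut into a transcription factor, and PERK slows translation. XBP1 and ATF6 raise transcription of many chaperone and degradation genes through short promoter motifs, among them the ER stress response element (ERSE).

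Promoter sequence was available from RefSeq for 33 of the 40 genes, as windows of 300 bases from 250 before to 50 from the start site on (build GRCm38.p6). ERSE, written as CCAAT, 9 bases of any kind and CCACG, matched on either strand in 10 of these 33 genes (30.3%), against 37 of all 27025 genes with a window (0.137%). Since ERSE is known as an element of chaperone and degradation genes, its higher share among the members is no independent result. The related ERSE-II, ATTGG, 1 base of any kind and CCACG, was found in Dnajb11 and Herpud1 (6.06% of the 33, against 0.0444%), and the core TGACGTGG bound by XBP1 and ATF6 in Txndc5 and Txndc11 (6.06%, against 0.714%). The motifs share half-sites, ATTGG being the reverse complement of CCAAT, but none of the 33 members held more than 1 kind of them. By role, ERSE was present in 5 of 11 chaperones (Calr, Canx, Dnajc3, Hsp90b1 and Hspa5), in 3 of 10 disulfide genes (Creld2, Ero1lb and Pdia6), in 2 of 9 degradation genes (Derl3 and Syvn1) and in 0 of 3 sensors and transcription factors. The stretches below, with 25 bases on each side, belong to the genes with ERSE or ERSE-II upstream of the start site that passed the test in the LDH comparison, and to Hsp90b1, the one gene with 2 ERSE matches. Dnajb11 also passed it, but its ERSE-II lies past the start site and is not shown. Each is read 5′ to 3′ on the gene's own strand, with the half-sites in capitals.
Hspa5 (chr2:34772000-34772068, plus strand): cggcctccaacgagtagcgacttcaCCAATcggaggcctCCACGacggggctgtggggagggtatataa
Dnajc3 (chr14:118937802-118937870, plus strand): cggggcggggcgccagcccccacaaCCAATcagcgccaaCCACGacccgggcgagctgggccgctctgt
Creld2 (chr15:88819495-88819563, plus strand): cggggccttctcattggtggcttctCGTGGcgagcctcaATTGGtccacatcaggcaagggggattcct
Derl3 (chr10:75893217-75893285, plus strand): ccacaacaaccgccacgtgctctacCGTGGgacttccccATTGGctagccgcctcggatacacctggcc
Herpud1, ERSE-II (chr8:94386352-94386412, plus strand): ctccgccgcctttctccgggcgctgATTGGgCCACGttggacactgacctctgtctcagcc
Hsp90b1 (chr10:86705508-86705681, minus strand): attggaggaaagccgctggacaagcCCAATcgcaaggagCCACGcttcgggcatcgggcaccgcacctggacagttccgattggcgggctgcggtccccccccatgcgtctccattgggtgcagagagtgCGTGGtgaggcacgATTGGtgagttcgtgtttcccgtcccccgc
In Hspa5 the match lies at -65 to -47 from the start site, and in Derl3, on the opposite strand, at -156 to -138. A match is a run of letters, and binding was not measured here.

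Each library held 26362407 to 28154143 estimated counts, and 3 counts correspond to 0.107 to 0.114 CPM (counts scaled to library size). Values below are CPM scaled within each set of 6 samples, in the order replicate 1, 2 and 3, and tests are edgeR's quasi-likelihood test with Benjamini-Hochberg adjustment over all genes. A gene is called where its adjusted p is below 0.05. Since nothing states that samples came from separate animals, p-values measure the spread between these samples. Ldha was 79.3, 88.8 and 92.1 CPM in the LDH knockouts and 851, 792 and 894 CPM in their controls (log2 fold change -3.29 ± 0.10 (SE), adjusted p = 3.26e-07). Ldhb was not lower there (0.37, adjusted p = 0.115), and Acly was 83.0, 52.5 and 87.0 CPM in its knockouts against 197, 192 and 202 (-1.41 ± 0.17, adjusted p = 0.0314). Y-linked RNA did not divide evenly between the groups: summed Y-linked RNA, here as CPM of the library total without further scaling, was 0, 0 and 0.0367 in the LDH knockouts against 93.0, 102 and 0.590 in their controls, and 0.0755, 74.3 and 82.8 in the Acly knockouts against 0.375, 121 and 2.83. Sex, as far as this RNA reflects it, is therefore partly confounded with genotype in the LDH set. Chondrocyte markers were abundant (Col2a1 9531, 8170 and 9637 CPM in LDH controls), and moved with the knockouts. Summed over 15 listed genes they were 19950 to 29988 CPM in LDH knockouts against 10867 to 12566, with 10 of 14 tested called higher (Col2a1 1.02, Acan 1.22, Snorc 1.45), and 16489 to 19031 against 9914 to 10932 in the Acly set, with 4 of 15 called higher. Osteoblast markers summed to 2542 to 4663 against 6480 to 8798 CPM in the LDH set, where 3 of 7 tested were called lower (Bglap2 -2.40, Sp7 -1.22 and Spp1 -1.01) and Mepe was at 0 in all 6 samples. Adipocyte markers summed to 33.3 to 74.3 against 19.5 to 21.3 CPM there, with 5 of 8 tested called higher (Plin1 4.84, Cfd 5.65, Fabp4 3.60). B and plasma cell markers, from cells rich in many of the 40 genes, summed to 0.726 to 1.54 against 1.58 to 1.98 CPM, with Tnfrsf17 at 0 in all 6 samples. The part of these other cell types in the results was not tested.

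In the LDH knockouts, which also differed from most of their controls in Y-linked RNA, many ER folding and degradation genes were lower. Of the 40 members, 15 passed the test and all 15 fell: Hspa5, Hyou1, Dnajb9, Dnajb11, Dnajc3, Fkbp11, Pdia5, Creld2, Derl1, Derl3, Herpud1, Selenos, Selenok, Xbp1 and Hid1. None passed in the other direction, and the log2 fold change was below 0 for all 40, with a median of -0.54 against 0.01 over all genes tested. Of the 13321 genes tested, 332 (2.49%) were called in either direction and 142 (1.07%) were called lower. Together the 40 genes took 0.832% to 1.30% of the counts in the knockouts and 1.57% to 1.76% in the controls. The 3 knockout values lay below all 3 control values for 31 of the 40 members, against 12.5% of all genes, and above them for 0. Without adjustment 32 members had p below 0.05, against 19.6% of all genes. In bulk RNA, fewer cells of a type and less RNA per cell cannot be told apart.

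The number of calls changed with the libraries used, while the direction changed in few members. Leaving out 1 library at a time gave 2 called members without knockout 1, 4 without knockout 2, 27 without knockout 3, 7 without control 1, 3 without control 2 and 2 without control 3, with 39 or 40 members below 0 each time. Over all genes these fits called 95 to 1068. Hid1 was called in all 6 of these fits and Derl3 and Selenos in 5 each. With Y-linked RNA as a covariate 0 members were called by edgeR's test, and only 3 of all genes. An unadjusted p below 0.05 was found for 26 members and for 2026 of 13321 genes (lowest adjusted p of a member 0.125). In that fit 37 of 40 members were still below 0, with a median of -0.58. Against control 3 alone, the control with little Y-linked RNA, 37 of 40 were below 0 with a median of -0.58. With 1 control the spread between controls cannot be estimated, so that fit cannot decide which members pass. All 3 knockouts were below control 3 for 35 of the 40, against 31.3% of all genes.

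**Figure D1:**
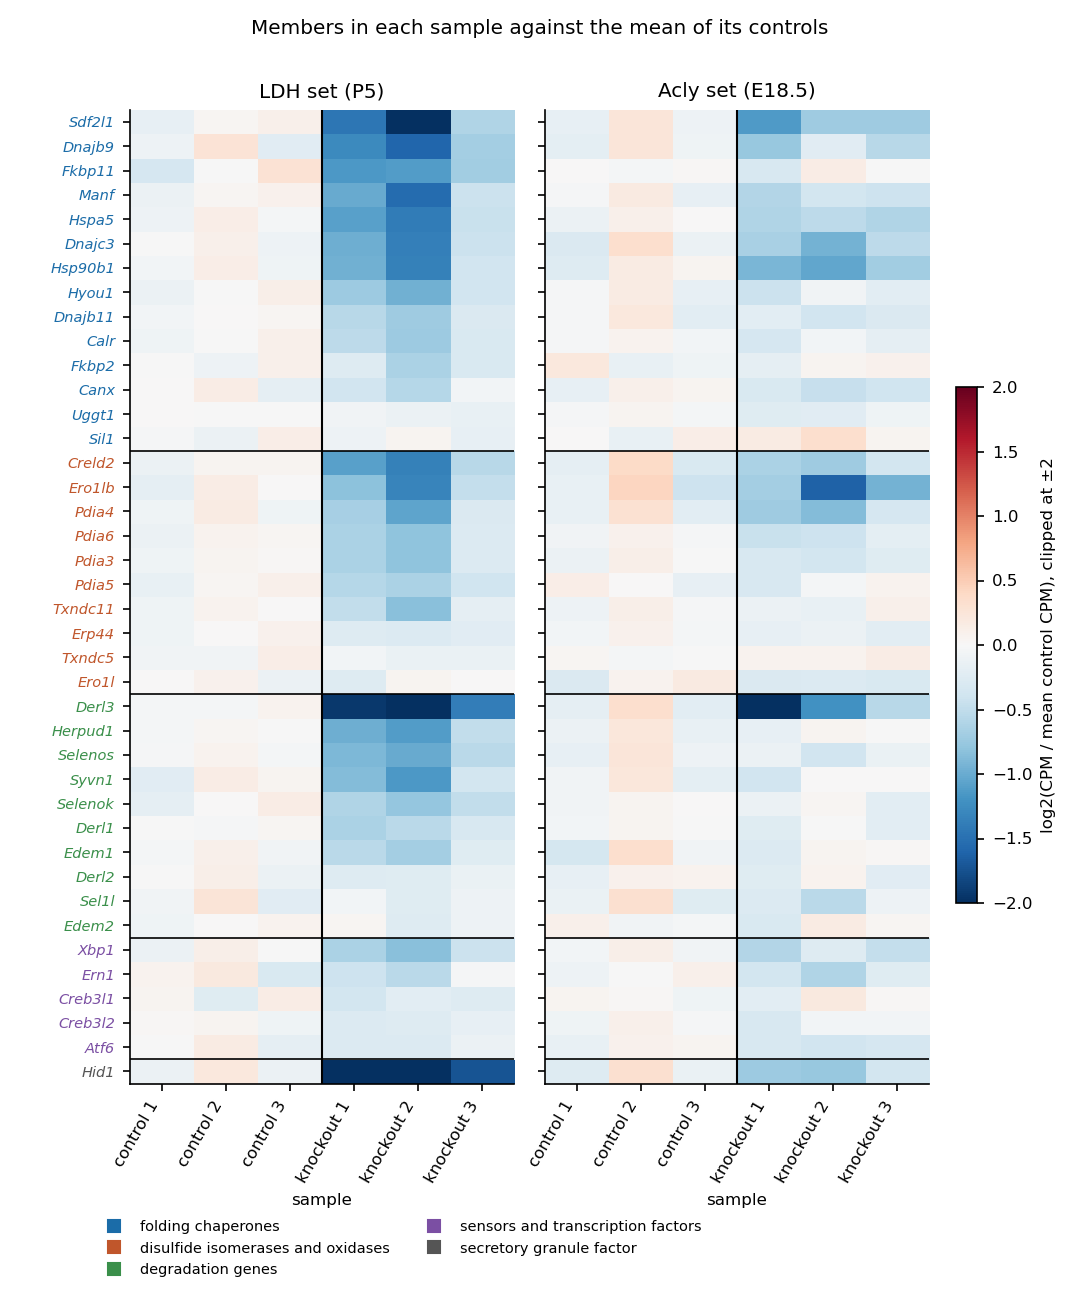
Each row is 1 of the 40 members, grouped by role, and each column 1 sample; the colour gives log2 of its CPM over the mean of the 3 controls of its set, blue for lower and clipped at 2 in either direction. In the LDH set the 3 knockout columns are mostly blue, palest in knockout 3, and in the Acly set the blue is paler, above all in the degradation genes other than Derl3.

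Of the roles with several genes, folding chaperones had the lowest median, -0.75 over 14 genes. Of these, 6 were called lower and 12 did not overlap between groups. Hspa5, which encodes BiP, the main ER chaperone and the repressor of the stress sensors, was the most abundant member at 3275 ± 386 TPM (transcripts scaled for gene length and library, mean ± SD) in LDH controls. It measured 2038, 1647 and 3173 CPM in the knockouts and 4031, 4731 and 4202 CPM in the controls, 52.9% of the control level (-0.92 ± 0.20, adjusted p = 0.0487). Knockout 3 stood highest of the knockouts, still below every control. Several BiP partners fell with it. Dnajb9 (ERdj4, a J-domain cofactor of BiP) measured 97.3, 78.5 and 147 CPM against 219, 285 and 201 (-1.13 ± 0.21, adjusted p = 0.0266). Dnajc3 (P58IPK), another J-domain cofactor, gave 116, 88.6 and 171 against 229, 246 and 214 CPM (-0.87 ± 0.19, adjusted p = 0.0490). Dnajb11 (ERdj3), which brings unfolded chains to BiP, changed less, with 82.5, 73.7 and 99.0 against 117, 122 and 124 CPM (-0.51 ± 0.10, adjusted p = 0.0376). None of these 3 overlapped between groups. Hyou1 (GRP170), which exchanges BiP's nucleotide, was 585, 498 and 739.7 CPM in knockouts and 890.1, 958 and 1044 in controls (-0.67 ± 0.14, adjusted p = 0.0384). Fkbp11, a prolyl isomerase common in secretory cells, had the lowest p of the chaperones, with 13.3, 13.6 and 18.3 against 23.3, 29.3 and 36.0 CPM (-0.97 ± 0.17, adjusted p = 0.0228).

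The remaining chaperones missed the threshold. Hsp90b1, the ER member of the HSP90 family, measured 925, 702 and 1383 CPM in knockouts and 1725, 1971 and 1687 in controls (-0.84 ± 0.20, adjusted p = 0.0632). Its 3 knockouts were spread widely and all lay below the controls. Calr, the lectin chaperone calreticulin, gave 1230, 1075 and 1438 against 1663, 1759 and 1898 CPM (-0.51 ± 0.12, adjusted p = 0.0526), without overlap. Its membrane-bound counterpart calnexin, Canx, gave 498, 437 and 629 against 658, 721 and 576 CPM (-0.32 ± 0.14, adjusted p = 0.237), and here knockout 3 lay above control 3. Sdf2l1 and Manf, small BiP-associated proteins, had larger but more variable differences of -1.27 ± 0.31 and -0.92 ± 0.22 (adjusted p = 0.0614 for both). Fkbp2, a prolyl isomerase, was at -0.39 (adjusted p = 0.0913). The values of Uggt1, which tests whether glycoproteins are folded, and of Sil1, another nucleotide exchange factor of BiP, were -0.11 and -0.06.

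Disulfide isomerases and oxidases were lower by a median of -0.54, with 2 of 10 called and 8 without overlap. Creld2, a stress-induced protein with isomerase activity that is known from cartilage disease models, measured 60.3, 50.3 and 87.1 CPM in knockouts and 118, 133 and 133 in controls (-0.96 ± 0.17, adjusted p = 0.0216). Pdia5 gave 17.7, 16.9 and 19.8 against 23.6, 27.0 and 28.0 CPM (-0.53 ± 0.11, adjusted p = 0.0347), a smaller shift with tight replicates. The abundant isomerases differed about as much without reaching the threshold. Pdia3 (ERp57, the partner of calnexin and calreticulin) and Pdia6 were at -0.55 ± 0.13 and -0.55 ± 0.13 (adjusted p = 0.0587 and 0.0585). Pdia4 (ERp72) measured 272, 206 and 350.0 against 405, 479.6 and 404 CPM (-0.64 ± 0.17, adjusted p = 0.0804). Its groups did not overlap. Ero1lb, the less abundant of the paired ER oxidases that recharge the isomerases, was at -0.83 ± 0.21 (adjusted p = 0.0667), whereas Ero1l was at -0.06 ± 0.10 (adjusted p = 0.788). Txndc11, Erp44, which retains oxidases in the ER, and Txndc5 followed with -0.48, -0.25 and -0.11 (adjusted p = 0.107, 0.0995 and 0.534).

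Among the degradation genes 5 of 10 were called lower, 8 did not overlap, and the median was -0.55. Derl3, 1 of 3 derlins that help to move misfolded chains out of the ER, fell the most of all members except Hid1. It measured 10.6, 5.48 and 15.6 CPM in the knockouts against 39.8, 39.8 and 42.5 in the controls, 26.0% of the control level (-1.94 ± 0.28, adjusted p = 0.00945). The controls lay close together and every knockout was below every control. Derl1 changed less, with 196, 209.8 and 243 against 303, 298 and 311 CPM (-0.49 ± 0.09, adjusted p = 0.0285), and Derl2 was at -0.21 (adjusted p = 0.208). Herpud1, a stress-induced scaffold of the degradation complex, gave 248, 223 and 347 against 474, 499 and 483 CPM (-0.83 ± 0.15, adjusted p = 0.0219). The selenoproteins Selenos and Selenok, which join the derlins to the extraction machinery, fell too. Selenos measured 27.2, 25.2 and 34.8 against 50.005, 53.1 and 49.1 CPM (-0.80 ± 0.12, adjusted p = 0.0102). Selenok measured 29.3, 25.8 and 31.6 against 39.0, 44.7 and 49.1 CPM (-0.61 ± 0.11, adjusted p = 0.0223). Syvn1 (HRD1), the ubiquitin ligase at the centre of the complex, was 145, 119.8 and 206 against 226, 293 and 274 CPM (-0.75 ± 0.18, adjusted p = 0.0592), without overlap and short of the threshold. Its adaptor Sel1l was at -0.13 ± 0.12 (adjusted p = 0.591). Of the mannosidase-like factors that mark glycoproteins for degradation, Edem1 was at -0.48 ± 0.11 (adjusted p = 0.0566) and Edem2 at -0.10 ± 0.10 (adjusted p = 0.618).

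The sensors and transcription factors differed less, with a median of -0.27 and 1 of 5 called. Xbp1, the factor spliced by IRE1, measured 128, 111 and 147 CPM in knockouts and 183, 214 and 196 in controls (-0.62 ± 0.11, adjusted p = 0.0223). Counts per gene do not separate its spliced from its unspliced RNA. Atf6 gave 208, 207 and 231 against 251, 282 and 222 CPM (-0.22 ± 0.10, adjusted p = 0.260). Ern1, which encodes IRE1, gave 67.6, 62.0 and 88.2 against 94.5, 103 and 72.4 CPM (-0.31 ± 0.15, adjusted p = 0.301). In both genes control 3 lay below knockout 3. Creb3l1 (OASIS) and Creb3l2 (BBF2H7) are membrane-bound relatives of ATF6, the latter needed for secretion of cartilage matrix. Creb3l1 measured 95.4, 106 and 103 against 128, 104 and 136 CPM, with overlap (-0.27 ± 0.10, adjusted p = 0.183), and Creb3l2 159, 159 and 170.0 against 194, 199.7 and 180.0 CPM, without it (-0.23 ± 0.08, adjusted p = 0.138). Hid1, which acts at the Golgi in the making of secretory granules, showed the largest difference of the 40. It measured 4.03, 1.75 and 6.33 CPM against 19.2, 24.1 and 19.3, 19.4% of the control level (-2.37 ± 0.34, adjusted p = 0.00957). Its level in LDH controls was low, 12.3 ± 2.15 TPM.

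**Figure D2:**
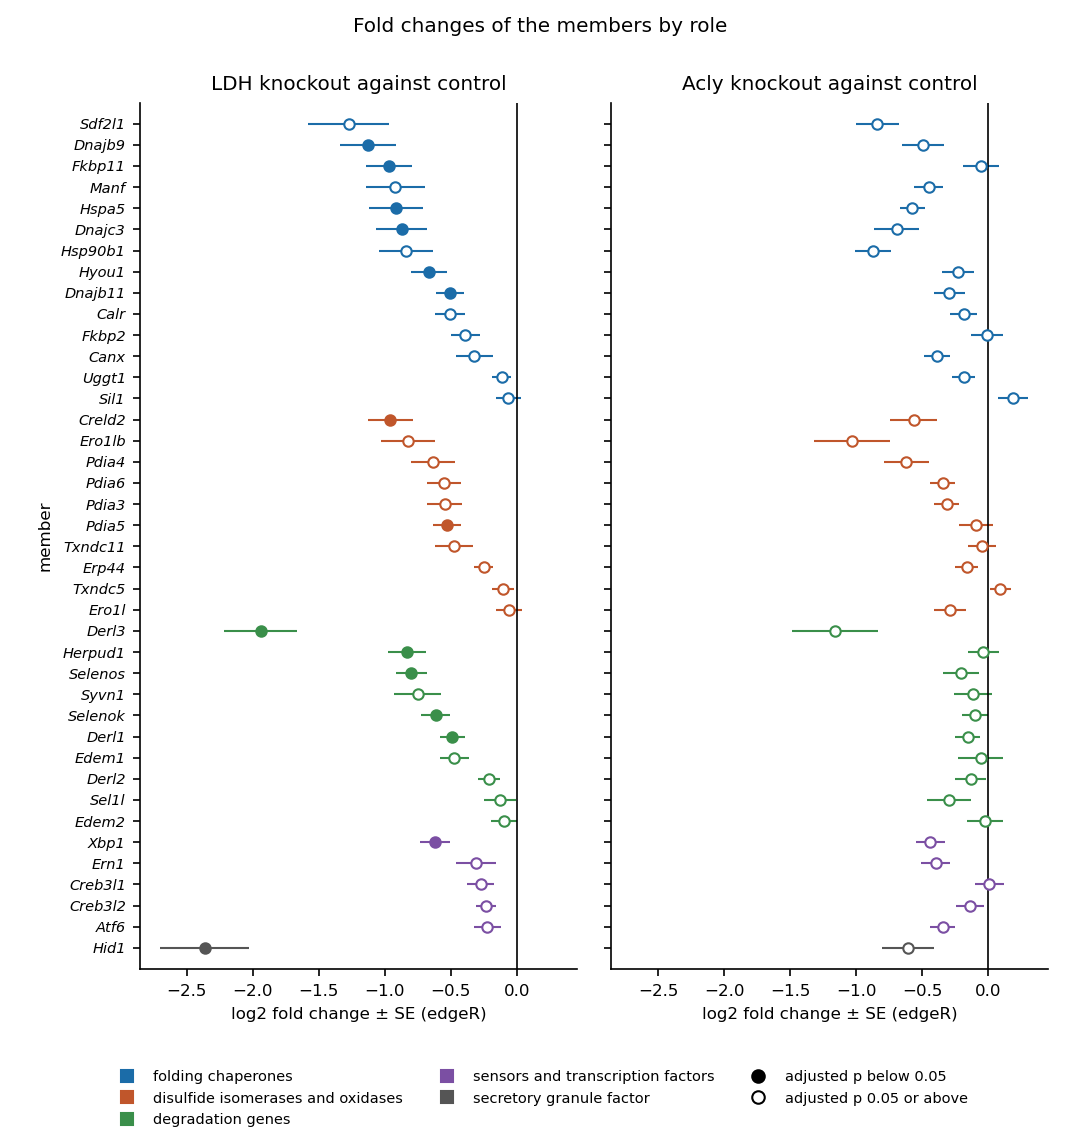
Points give the log2 fold change of each member, knockout against its own control, with the standard error as a bar; filled points have an adjusted p below 0.05. All 40 points lie left of 0 in the LDH panel and 15 are filled; in the Acly panel 37 lie left of 0 and none is filled.

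The LDH knockouts differed among themselves in the size of the shift. Relative to the control mean, the median log2 ratio of the 40 members was -0.61 in knockout 1, -0.79 in knockout 2 and -0.31 in knockout 3. Knockout 2 was the lowest of the 3 for 31 members and knockout 3 the highest for 32. In knockouts 1, 2 and 3, 36, 37 and 35 members lay below all 3 controls, against 30.7%, 31.6% and 25.3% of all genes tested. The order held in the chaperones, at -0.84, -1.03 and -0.38, in the disulfide genes, at -0.60, -0.80 and -0.27, and in the degradation genes, at -0.61, -0.73 and -0.34. The sensors and transcription factors were at -0.36, -0.28 and -0.17. Chondrocyte markers summed to 22276 CPM in knockout 1, 29988 in knockout 2 and 19950 in knockout 3, and adipocyte markers to 48.2, 74.3 and 33.3 CPM, both the reverse of the order of the members. The same reverse order held for macrophage (89.7, 148 and 72.7 CPM), neutrophil (5.05, 10.1 and 2.71) and red blood cell markers (10.4, 24.3 and 9.32). Osteoblast markers, at 2542, 3954 and 4663 CPM, followed neither order. Nor did fibroblast, skeletal muscle, B and plasma cell or endothelial markers. The part of these markers was not tested.

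Other genes of the secretory pathway had medians nearer 0 than the chaperones, disulfide and degradation genes. In translocation and export the median was close to that of the members' sensors and transcription factors (-0.27). In translocation into the ER, 2 of 17 genes were called lower (Srpr, a receptor subunit for the signal recognition particle, -0.59, and Spcs2 of signal peptidase, -0.43), with a median of -0.29 and 16 of 17 below 0. Of these 17, 13 were lower without overlap and 14 had an unadjusted p below 0.05 by edgeR's test, against 12.5% and 19.6% of all genes. Of the glycosylation and glycan trimming genes, 2 of 12 were called lower, Stt3a (-0.49), a catalytic subunit of the oligosaccharyltransferase, and Magt1 (-0.57), around a median of -0.16. In that list 9 of 12 were below 0, 9 were lower without overlap and 6 had an unadjusted p below 0.05. ER export and retrieval had 4 of 20 called lower and a median of -0.31, the COPII coat genes Sec23b (-0.57) and Sec24d (-0.69), the cargo receptor gene Surf4 (-0.54) and Mia3 (-0.34), whose product TANGO1 loads collagen for export. All 20 export genes were below 0, with 15 lower without overlap and 15 at an unadjusted p below 0.05. Eif2ak3, the PERK sensor, fell (33.0, 28.4 and 42.6 against 55.7, 54.2 and 52.8 CPM, -0.64 ± 0.13, adjusted p = 0.0360) and was the only 1 called of 9 PERK branch genes, whose median was -0.11. Downstream of it, Atf4 was at -0.09 (adjusted p = 0.680), Ddit3 (CHOP) at -0.50 (adjusted p = 0.0532) and Nupr1 at 0.42 (adjusted p = 0.0676). Of the 9 PERK branch genes 4 were lower and 1 higher without overlap, and 5 had an unadjusted p below 0.05.

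Of 17 other degradation genes 0 were called by edgeR (5 at an unadjusted p below 0.05, median -0.13, lowest p Rnf185 at -0.28), and of 22 tested other folding genes 0 (9 unadjusted, median -0.06). Of the 17 degradation genes, 16 were below 0 and 7 were lower without overlap, against 12.5% of all genes. Of the 22 folding genes, 15 were below 0, with 7 lower and 2 higher without overlap. The folding genes include the collagen chaperone gene Serpinh1 (HSP47), at 2063, 1702 and 2137 against 2014, 1778 and 2228 CPM (-0.03 ± 0.12, adjusted p = 0.920), and P4hb, which encodes the general protein disulfide isomerase and a subunit of collagen prolyl hydroxylase, at -0.34 ± 0.09 (adjusted p = 0.0740). The lowest p of that list was that of Qsox1, a thiol oxidase, at -0.35 (adjusted p = 0.0547). Among 7 tested other sensors and processing proteases, Bhlha15 (MIST1), a transcription factor of professional secretory cells, fell from 2.14, 3.07 and 2.40 CPM in controls to 0.363, 0.410 and 0.987 in knockouts (-2.10 ± 0.37, adjusted p = 0.0223), and the list's median was -0.07. In the Acly comparison 0 genes of these 7 lists were called by edgeR, with an unadjusted p below 0.05 in 2 PERK branch, 3 translocation, 3 glycosylation, 6 export, 1 degradation, 5 folding and 3 sensor genes. Their medians there were 0.21 for the PERK branch and between -0.13 and -0.00 for the others. Within these lists, in the same order, the lowest p belonged to Nupr1 (0.39), Spcs3 (-0.44), Stt3a (-0.31), Sec24d (-0.43), Edem3 (-0.47), Dnajc10 (-0.44) and Tmbim6 (0.33).

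**Figure D3:**
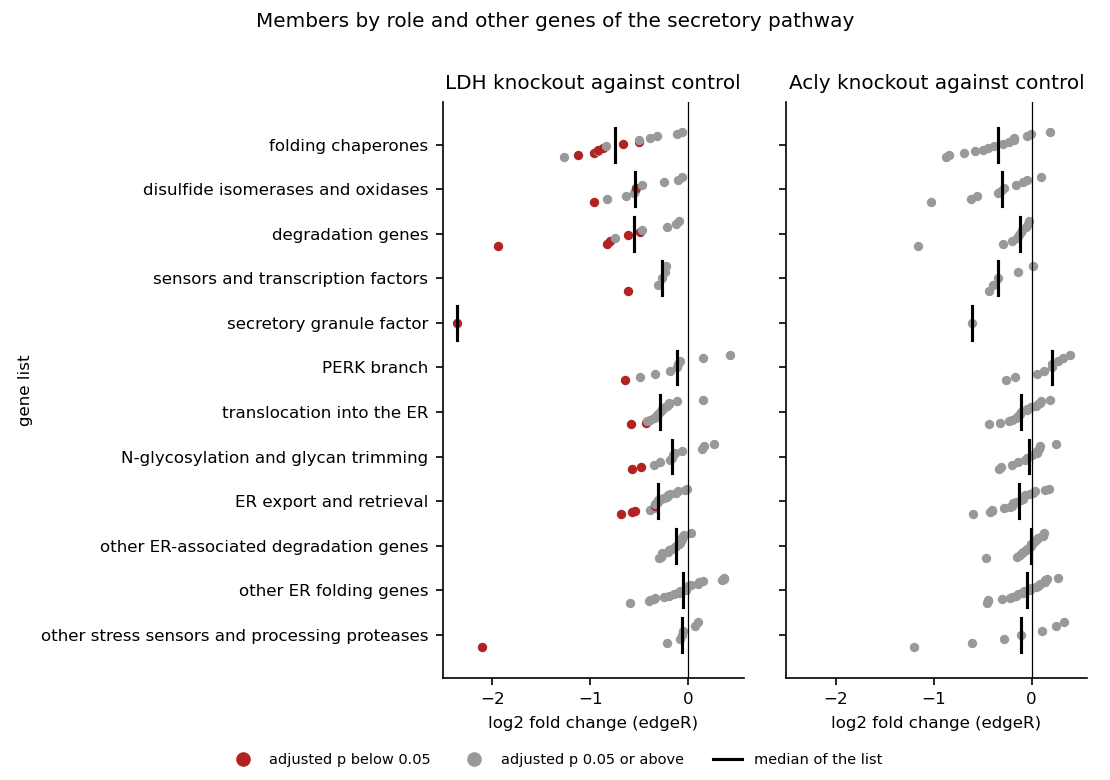
Each point is the log2 fold change of 1 gene, in rows for the 5 roles of the members and 7 other lists, with the median as a bar and genes with an adjusted p below 0.05 in red. In the LDH panel the chaperone, disulfide and degradation rows sit farthest left, apart from Hid1, and the other lists have medians between -0.31 and -0.06.

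In the Acly knockouts most of the 40 genes lay on the low side, and none passed the test. Of 40 members 37 were below 0, with a median of -0.26 against -0.00 over all genes, and edgeR called 0 (19 at an unadjusted p below 0.05, against 15.8% of all genes). The test called few genes of any kind, 19 of 13973 (0.136%). DESeq2 called 9 members lower (Hspa5, Hsp90b1, Dnajc3, Sdf2l1, Manf, Canx, Pdia4, Ero1lb and Xbp1), among 247 genes called in either direction. Without knockout 2, edgeR called 5 (Hspa5, Hsp90b1, Dnajb9, Sdf2l1 and Xbp1), among 132 genes. In 19 members all knockouts were below all controls, against 11.3% of all genes, and in 1, Txndc5, all were above. Osteoblast markers summed to 5904 to 7455 CPM against 7913 to 10920 and fibroblast markers to 778 to 2021 against 2189 to 2620, while skeletal muscle markers were 214 to 408 against 361 to 461. Of these lists 0 of 9, 0 of 7 and 0 of 10 tested genes were called, and their part in the members' values was not tested. With Y-linked RNA as a covariate 38 of 40 members were below 0 and edgeR called 0 of them (19 unadjusted), against 6 of all 13973 genes (1590 unadjusted).

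Among the chaperones 8 of 14 did not overlap, with a median of -0.34. Hsp90b1 had the lowest p of all members, at 776, 712 and 905 CPM in knockouts and 1224, 1639 and 1516 in controls (-0.87 ± 0.13, adjusted p = 0.0694). Hspa5 gave 1290, 1356 and 1294 against 1800, 2101 and 1964 CPM (-0.57 ± 0.09, adjusted p = 0.0764), the knockouts being nearly level. In both genes every knockout lay below every control. Sdf2l1 was at -0.84 ± 0.16 (adjusted p = 0.114) and Manf at -0.45 ± 0.11 (adjusted p = 0.199). Dnajc3 measured 109.7, 89.2 and 119 against 139.8, 216 and 158 CPM (-0.69 ± 0.17, adjusted p = 0.199). Dnajb9 measured 58.3, 84.0 and 66.9 against 85.8, 116 and 92.4 CPM (-0.49 ± 0.16, adjusted p = 0.252). Control 2 was the highest sample for each of these J-domain genes. Canx gave 419, 376 and 392 against 459, 554 and 537 CPM (-0.39 ± 0.10, adjusted p = 0.219), and Uggt1 was at -0.18 without overlap. Calr (961, 1173 and 1072 against 1200, 1279 and 1165 CPM, -0.18 ± 0.10), Hyou1 (405, 525 and 474 against 542, 612 and 491 CPM, -0.23 ± 0.12) and Dnajb11 (74.4, 65.8 and 69.9 against 84.3, 99.3 and 73.9 CPM, -0.29 ± 0.12) overlapped between groups. Fkbp11, called in the LDH set, measured 15.3, 21.0 and 18.9 CPM in Acly knockouts and 19.2, 18.6 and 19.4 in controls (-0.05 ± 0.14, adjusted p = 0.857). Fkbp2 and Sil1 were at -0.01 and 0.19.

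In the disulfide genes the median was -0.30 and 6 of 10 were lower without overlap. Pdia4 had the lowest p, with 268, 242 and 349 CPM in knockouts and 397, 542 and 382 in controls (-0.62 ± 0.17, adjusted p = 0.226). Ero1lb had the largest difference, -1.03 ± 0.29 (adjusted p = 0.229), at a mean of only 7.76 CPM in controls. Creld2 gave 46.1, 43.7 and 55.4 against 63.0, 93.3 and 58.1 CPM (-0.56 ± 0.18, adjusted p = 0.252), the lowest control being just above the highest knockout. Pdia3, Pdia6 and Erp44 were at -0.31, -0.34 and -0.16, each without overlap. Pdia5 (24.7, 29.996 and 32.4 against 33.9, 31.1 and 27.7 CPM), Txndc11 and Ero1l overlapped, at -0.09, -0.05 and -0.29, and Txndc5 was at 0.09.

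Degradation genes had the median nearest 0 in the Acly set, -0.12. Derl3 alone did not overlap, at 13.9, 26.1 and 40.7 CPM in knockouts and 52.9, 75.6 and 51.8 in controls (-1.16 ± 0.33, adjusted p = 0.230), with a wide spread among its knockouts. Herpud1 (211, 245 and 235 against 218, 278 and 213 CPM, -0.03 ± 0.12), Selenos (22.6, 18.7 and 22.3 against 21.7, 28.8 and 22.9 CPM, -0.20 ± 0.14) and Selenok (33.2, 37.1 and 31.2 against 34.6, 37.6 and 36.5 CPM, -0.10 ± 0.10) were mixed between groups. So were Derl1 (233, 275 and 237 against 267, 288 and 273 CPM, -0.15 ± 0.09) and Syvn1 (115, 149 and 149 against 142, 175 and 129.7 CPM, -0.11 ± 0.14). Derl2, Edem1, Edem2 and Sel1l were at -0.13, -0.06, -0.02 and -0.30, all with overlap. The median log2 ratio of the 10 genes to the control mean was -0.26, 0.02 and -0.12 in Acly knockouts 1 to 3, while that of the chaperones was -0.39, -0.29 and -0.35.

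Of the sensors and transcription factors 3 of 5 did not overlap, and their median was -0.34. Xbp1 measured 90.2, 113 and 97.0 CPM against 130.0, 147 and 129 (-0.44 ± 0.11, adjusted p = 0.200). Atf6 gave 184, 178 and 184 against 208, 245 and 240.2 CPM (-0.34 ± 0.09, adjusted p = 0.221), and Ern1 55.6, 47.6 and 61.0 against 67.4, 71.7 and 77.1 CPM (-0.40 ± 0.11, adjusted p = 0.226). All 3 knockouts lay below all 3 controls in each. Creb3l1 (122, 161 and 143 against 146, 144 and 133 CPM, 0.01 ± 0.11) and Creb3l2 (135, 162 and 163 against 159, 182 and 166 CPM, -0.14 ± 0.10) overlapped. Hid1 measured 6.28, 6.12 and 8.03 against 8.64, 13.0 and 9.43 CPM (-0.60 ± 0.20, adjusted p = 0.257), again without overlap.

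**Figure D4:**
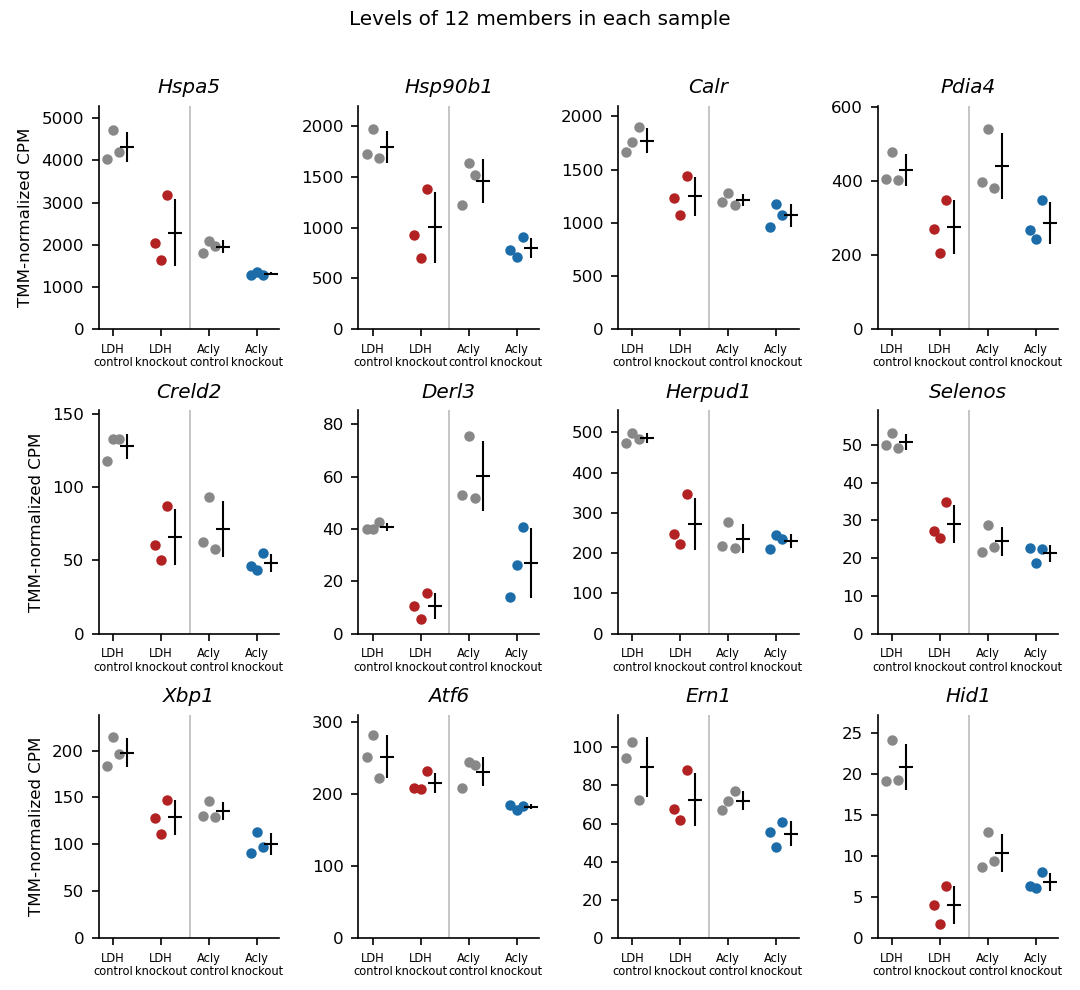
Dots give the TMM-normalized CPM of 12 members in each of the 12 samples and the bar beside each group its mean ± SD; the scale starts at 0 and is set within each set of 6 samples. Derl3 and Hid1 separate the LDH groups most widely, and Herpud1 and Selenos separate the LDH groups but overlap in the Acly set.

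Whether both deletions differed in their effect was tested by the interaction in a fit of all 12 samples. No member was called by edgeR (0 of 40, 9 at an unadjusted p below 0.05), among 23 of 14251 genes (0.161%), so an effect past the threshold in the LDH set and short of it in the Acly set is not shown to differ. The median difference, LDH minus Acly, was -0.25, and by role it was -0.32 in chaperones, -0.19 in disulfide genes, -0.45 in degradation genes and -0.08 in sensors and transcription factors. Of the 9 members with an unadjusted p below 0.05, 5 were degradation genes: Herpud1 (-0.78 ± 0.20, adjusted p = 0.170), Selenok (-0.50 ± 0.14, adjusted p = 0.207), Selenos (-0.58 ± 0.19, adjusted p = 0.268), Derl1 (-0.32 ± 0.12, adjusted p = 0.314) and Syvn1 (-0.62 ± 0.25, adjusted p = 0.333). The other 4 were Hid1 (-1.75 ± 0.45, adjusted p = 0.159), Fkbp11 (-0.90 ± 0.23, adjusted p = 0.164), Pdia5 (-0.42 ± 0.17, adjusted p = 0.316) and Hyou1 (-0.42 ± 0.19, adjusted p = 0.382). Differences near 0 were found for Hsp90b1 (0.05 ± 0.28, adjusted p = 0.953) and Pdia4 (-0.00 ± 0.27, adjusted p = 0.998). DESeq2 called 3 members, Hid1, Fkbp11 and Herpud1, and edgeR without LDH knockout 3 called the same 3. Totals over all genes were not counted for these fits of the difference, so the 3 members stand without a background share. In the LDH comparison both settings called more genes of any kind, 901 and 1068 against 332. Age and line differ between the sets along with the deleted gene and cannot be told apart from it.

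The control groups themselves differed in these genes. With all 12 samples scaled together, 26 members were lower and 1 higher in the E18.5 Acly controls than in the P5 LDH controls, with a median of -0.46. Most genes differed between these controls, 7844 of 14251 (55.0%), and 3660 (25.7%) were lower at E18.5. Hspa5 measured 1856 ± 138 against 4571 ± 389 CPM (-1.30, adjusted p = 5.19e-05), mean ± SD with n = 3. Sdf2l1 showed the widest gap, at 21.7 ± 3.35 against 115 ± 10.0 CPM (-2.40, adjusted p = 2.05e-05). Dnajb9, Manf, Selenos and Herpud1 were also lower, at -1.42, -1.35, -1.21 and -1.19. Hid1 was 9.83 ± 2.17 against 22.1 ± 3.03 CPM (-1.17, adjusted p = 0.00566). Ero1l, the abundant ER oxidase and a gene induced by low oxygen, was the one called higher, at 343 ± 55.5 against 239.7 ± 18.0 CPM (0.52, adjusted p = 0.00205). Derl3 was not called (0.41, adjusted p = 0.322), nor was Hsp90b1 (-0.45, adjusted p = 0.0654). The order of levels in TPM was headed in both control groups by Hspa5, Calr and Hsp90b1, at 3275 ± 386, 1780 ± 74.6 and 1258 ± 159 TPM in LDH controls, and closed by Hid1 and Ero1lb, at 12.3 ± 2.15 and 4.60 ± 0.340 TPM. Without scaling, which moved the median of all genes by 0.17 in log2, 18 members were called, 17 of them lower, and the median of the 40 was -0.29. Age and line coincide with these groups and cannot be told apart. Markers of other cell types differed as well. In the Acly controls 10 of 10 skeletal muscle, 7 of 7 fibroblast and 5 of 5 endothelial genes were called higher (medians 3.82, 2.25 and 2.60). So were 8 of 9 tested adipocyte, 6 of 9 osteoblast and 3 of 4 red blood cell genes (medians 3.47, 1.48 and 1.36). Of 8 macrophage genes 5 were called higher and 1 lower, and of 2 tested B and plasma cell genes 0 higher and 1 lower. Of 15 chondrocyte genes 9 were called higher and 2 lower, and of 4 tested neutrophil genes 0 higher and 1 lower. The part of these cell types in the members' values was not tested. The LDH controls serve here and in the LDH comparison, so that the values of both comparisons are linked.

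The 10 members with ERSE had a median log2 fold change of -0.83 in the LDH comparison, between -1.94 for Derl3 and -0.32 for Canx, and 4 of them were called. The 23 members with a window but no ERSE had a median of -0.48, between -1.27 for Sdf2l1 and -0.06 for Ero1l, and 8 were called. In the Acly comparison the medians were -0.57 and -0.16, with 0 called in either class. Derl3 and Syvn1 are the degradation genes with the element. Derl3 stood at -1.94 and -1.16 in the LDH and Acly comparisons, Syvn1 at -0.75 and -0.11. Herpud1, with ERSE-II, stood at -0.83 and -0.03, and Dnajb11, with the same motif, at -0.51 and -0.29. These values describe the members and were not tested. Genes without a match also fell, among them Dnajb9 (-1.13) and Selenos (-0.80).

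**Figure D5:**
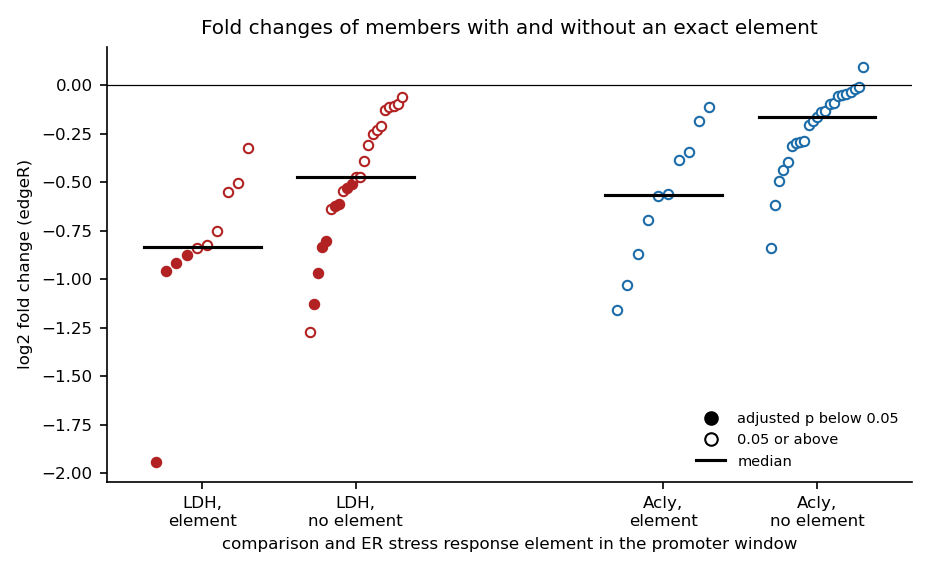
Log2 fold changes of the 33 members with a promoter window, split by an exact ERSE match; filled points have an adjusted p below 0.05 and bars are medians. Members with the element have medians of -0.83 (LDH) and -0.57 (Acly), those without it -0.48 and -0.16, and both classes overlap widely.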

How the data were processed

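Estimated read counts, FPKM and TPM per gene for 12 samples in 4 groups of 3 were deposited by the authors in 1 table. HISAT2 2.0.4 and the build mm9 are named per the submitters' processing notes, without a role; the labels give poly(A) selection and BGI sequencing. The counting program, annotation and strand setting are not given in the sources used here, so that reads of overlapping or antisense genes may be shared. Of the deposited estimated counts 7.32% to 8.16% were not whole, and all were rounded. Genes low in counts were removed (edgeR's filterByExpr), scaled by TMM and tested with edgeR 4.0.16 (R 4.3.3), each knockout against its own control on 6 samples. The difference of effects and the controls were tested in a fit of all 12. Standard errors are the log2 fold change over the square root of F. Alternatives were other scalings, no filter, DESeq2 1.42.0, limma 3.58.1 on log2 of the deposited FPKM with 0.1 or 1 added, a replicate block, all 12 samples, Y-linked RNA as a covariate, and each library left out. Deposited TPM was used to compare levels between genes. No pair of replicates agreed within sampling noise. In simulated counts with known changes, most altered genes were given the right sign and false calls were limited. The share of changes recovered is not given here, so sensitivity to small changes is not shown.

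All 40 members are named, with values in every sample for the called ones and 9 others. The members, lists and this rule were chosen with earlier results of these data known. The comparisons without samples high in Y-linked RNA, and with that covariate in the Acly set, were added after seeing the data. RefSeq promoter windows (GRCm38.p6, not the files' build) were searched on both strands; the last 30 bases of 30 of the 33 windows were found in a transcript of the gene.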

Additional observations from a re-analysis of the deposited data

How the results depend on the processing

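In the LDH comparison 15 members and 332 genes were called. Without a filter on low counts 23 members and 445 genes were called, and with DESeq2 24 members and 901 genes. With Y-linked RNA as a covariate 0 members and 3 genes were called. In samples with little Y-linked RNA, which include only 1 control, the median of the members was -0.58. Leaving out 1 library gave 2 to 27 members and 95 to 1068 genes. In the Acly comparison, with 0 members and 19 genes called, unscaled totals gave 11 genes, no filter 32 genes and 1 member (Hsp90b1), DESeq2 247 genes and 9 members, the fit of all 12 samples 31 genes and the Y-linked covariate 6 genes. Leaving out 1 library gave 0 to 132 genes and 0 to 5 members there. For the difference of effects DESeq2 called 3 members in place of 0, and leaving out 1 library 0 to 3. Totals over all genes were not counted for these alternatives. Between the control groups 18 to 28 members were called under the alternatives run, against 27. Over 640 pairs of member and alternative in the LDH set, 507 stayed on their side of the threshold, 92 lost it, 41 gained it and 0 called values reversed; 9 estimates of 4 members changed sign. In the Acly set 585 of 600 pairs stayed and 15 gained it, and 23 estimates of 9 members changed sign.

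Same-numbered samples did not deviate together (correlations 0.0756, -0.183 and 0.00131 in the LDH set, -0.151, -0.327 and -0.314 in the Acly set), so that the numbers were not taken as pairs. A fit with the replicate number as a block called 19 members and 362 genes in the LDH set, 0 members and 8 genes in the Acly set, and 0 members for the difference of effects. Why calls differ between alternatives was not tested. With 3 samples a group an exact permutation test of 1 gene cannot go below p = 0.1, and 3 counts in a library set a floor of 0.107 to 0.114 CPM, below every value of the members (lowest 1.75 CPM).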
